A study of Mus musculus with 8 samples.

Results

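Some probes of the mouse array carry no gene name or transcript accession but a stretch of the genome, written as a chromosome, a start and an end in build mm9, and these interval probes are described here in whole skin. They are the probes that are not array controls and whose systematic name begins with chr, with the X and Y chromosomes left out, and spots of the same probe were averaged. The rule took 15617 of the 55681 non-control probes on the array. A further 577 interval probes on the X chromosome were left out. Such probes are placed on arrays to look for long RNAs made between annotated genes. Long intergenic non-coding RNAs are transcribed and often spliced like mRNAs but encode no protein. Many are present at low levels and in few cell types, some act in the nucleus on chromatin or on neighbouring genes, and others are by-products of transcription from promoters and enhancers. Whether a given interval lies outside all genes was not analysed here, so an interval is called by its coordinates and no gene is assigned to it.

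Total RNA was measured in 4 arrays of skin labelled Control and 4 arrays of skin labelled DTG, a name whose meaning the labels leave unsaid. The title gives Musashi1, the RNA-binding protein of the gene Msi1, as the protein overexpressed in skin. The animals' strain, age, transgene promoter and number are not given in the sources used here, and every sample is labelled male. Nothing in the labels says that the arrays of a group came from separate animals, so the p-values measure the spread between these arrays. Levels are given as the log2 of the scanner's processed signal minus the 75th percentile of that array, so that 0 is the level below which 75% of the array's probes lie and a difference of 1 is a doubling. In whole tissue, fewer cells of a type and less RNA per cell cannot be told apart.

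Several facts of the arrays bear on every result. The Msi1 probe A_55_P2062688 read -2.26, -5.92, -1.48 and -1.56 in Control and 4.00, 3.85 and 4.16 on the 3 DTG arrays with a usable spot, while the other Msi1 probe, A_51_P296866, differed by -0.03. Xist, the RNA of the inactive X chromosome, was high on Control 2 and 4 and on DTG 1, 3 and 4, and the Y-linked gene Eif2s3y showed the opposite pattern, so 5 of the 8 arrays went against their male label. All Control arrays lay in row 1 of the slide and all DTG arrays in row 2, so an effect of the row cannot be told apart from that of the group. The negative-control spots were brighter in DTG, with mean log2 signals of 4.20 to 4.60 against 2.31 to 3.12 in Control, and 4 DTG but 0 Control arrays went past the scanner software's limits for the spread of negative controls and for detrending. Epidermal markers were high in both groups, with a log2 summed level of 6.84 to 7.25 in Control and 6.34 to 6.78 in DTG, and 4 of 6 were called lower. Of the other marker lists, adipocyte had 4 of 6 called lower (summed level 5.82 to 6.40 in Control, 5.87 to 5.97 in DTG), T cell 3 of 5 (4.34 to 4.49 and 3.98 to 4.35) and Schwann cell 2 of 6 (3.77 to 4.10 and 3.56 to 3.75). The fibroblast, hair follicle, skeletal muscle, endothelium and melanocyte lists had 1 of 6 lower each, macrophage and red blood cell had 0 of 5 and 0 of 3, and 1 of 6 sebaceous gland markers was higher. The part of these differences in the interval results was not tested. For the marker counts, the background was 18.6% of all tested probes called lower. That share was 1.93% when arrays were scaled on the spike-in control spots. The marker counts are given for the first scaling alone and by themselves show no loss of a cell type.

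The interval probes fall on 3385 distinct intervals once those whose ends differ by no more than 10 bases are merged. A name ends in F or R, read here as the forward or reverse strand, and 7890 probes were forward, 7714 reverse and 13 had no letter. The median interval was 7451 bases long, the shortest 62 bases and the longest 7.13 Mb, and 2005 intervals (59.2%) overlapped at least 1 other. An interval and strand carried a median of 3 and at most 10 probes, and 1040 intervals had probes for both strands. Probes of 1 interval, and of overlapping intervals, may share a target, which was not checked, and are not replicates. In 995 intervals (29.4%) the end minus the start was a multiple of 25 bases, and this class was longer, with a median of 17801 against 2719 bases, and more often had probes on both strands, 71.8% against 13.6%. The 2 classes were called in nearly the same shares, 11.1% higher and 17.8% lower in the first and 10.8% and 18.2% in the second.

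Most interval probes gave signal in skin, and fewer did so on the DTG arrays. The scanner software flags a spot as well above background when it clearly exceeds the local background. Of the interval probes, 11350, 12509, 12674 and 11921 were flagged on the 4 Control arrays and 9677, 9079, 9128 and 9275 on the 4 DTG arrays. The lowest Control array therefore had more than the highest DTG array. The shares were 77.6% ± 3.86 in Control and 59.5% ± 1.74 in DTG (SD, n = 4 each), against 81.7% ± 2.70 and 68.5% ± 1.13 over all non-control probes. Measured against the 99th percentile of each array's negative-control spots, the shares were 89.7% ± 2.37 and 77.6% ± 1.80. The brighter negative controls of DTG, given above, moved with this difference, and their part in it was not tested. The median level of the interval probes was -4.46 ± 0.06 in Control and -4.48 ± 0.08 in DTG.

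Over all 8 arrays, 8228 interval probes (52.7%) were well above background everywhere and 2322 (14.9%) nowhere. Another 1278 (8.18%) were well above background on all 4 Control and on 0 DTG arrays, a pattern held by 5.91% of all non-control probes. The opposite pattern, 0 Control and 4 DTG arrays, was held by 19 interval probes (0.122%, against 0.0736% of all probes). Of the 1278, 592 were called lower, and each of the 19 was called higher. Both sets entered the test only through the group in which they were well above background, so these counts are no support for a change. Detection resembled that of other probes without a RefSeq mRNA. RefSeq mRNA probes were well above background in 87.0% of Control and 78.1% of DTG readings, RefSeq non-coding RNA probes in 75.7% and 61.4%, full-length cDNA clones in 73.3% and 57.6%, and Ensembl transcripts in 76.2% and 59.3%.

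**Figure D1:**
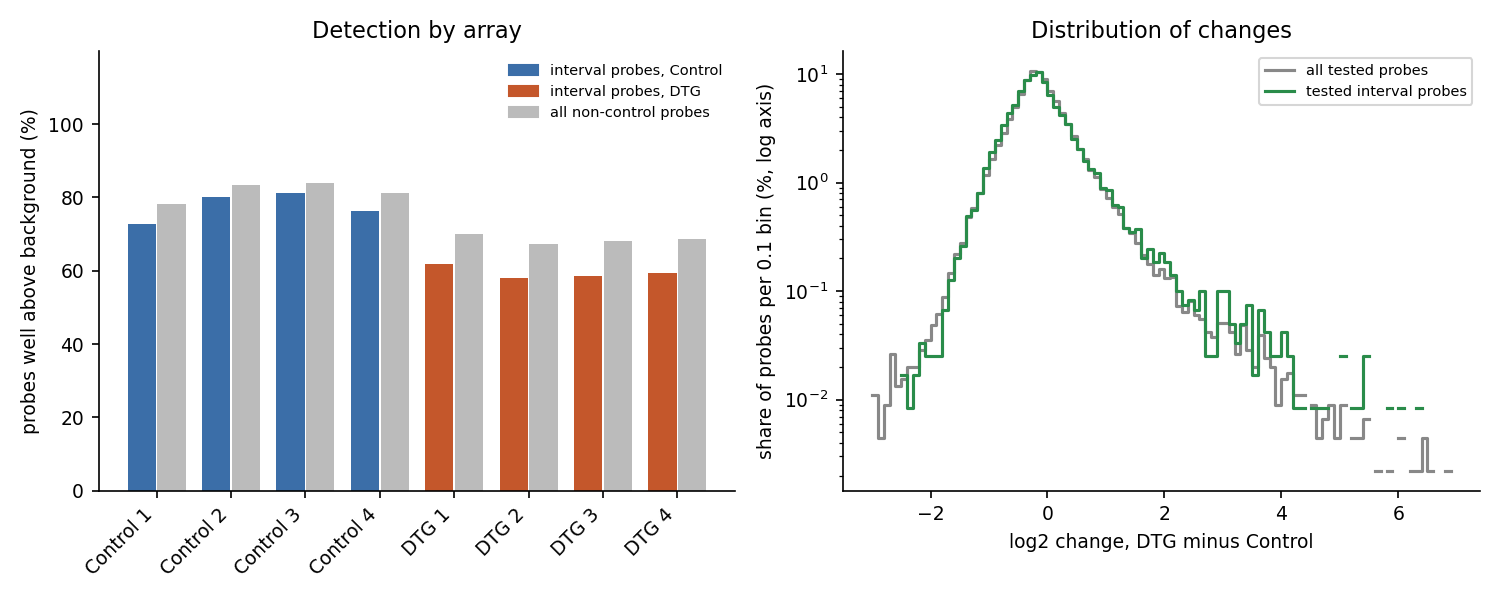
Left, the share of probes well above background on each array, in percent, for interval probes (blue, Control; orange, DTG) and all non-control probes (grey). Right, the share of tested probes per 0.1-wide bin of log2 change (log axis), for interval probes (green) and all tested probes (grey). Interval probes lie between 72.7% and 81.2% on Control arrays and between 58.1% and 62.0% on DTG arrays, and their changes run from -2.44 to 6.30.

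Interval probes differed between the groups about as often as any probe on the array, with more decreases than increases but larger increases. A probe entered the test when 3 or more of the 4 arrays of either group read it well above background, a condition that 11961 of the 15617 interval probes (76.6%) passed. A probe was called at an adjusted p under 0.05 in limma, with Benjamini-Hochberg adjustment over all 45139 tested probes. Of the tested interval probes 3459 (28.9%) were called, against a background of 29.2% of all tested probes. They comprised 1306 higher in DTG (10.9%; background 10.6%) and 2153 lower (18.0%; background 18.6%). Without the Control 3 array 1316 were lower, a setting for which the share of all tested probes is not given here. The shares with all arrays are near the background, so the count by itself sets interval probes apart in neither direction. The groups did not overlap for 3662 tested interval probes (30.6%; background 32.9%). The median log2 change was -0.17, against -0.16 over all tested probes, with a median SE of 0.17.

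Size separated the directions. Calls with a change of at least 2-fold numbered 1052 (8.80%; background 7.79%). Such a change was found higher for 637 probes on 277 intervals (5.33%; background 4.34%) and lower for 415 probes on 299 intervals (3.47%; background 3.45%). At 8-fold or more there were 82 higher probes on 38 intervals (0.686%; background 0.445%) and 0 lower probes (background 0.031%). Of the 637, 494 were well above background on all 8 arrays, and so were 41 of the 82. Of the 415 decreases, 56 were, and 318 were well above background on 0 DTG arrays, so that their size is known only as a bound. The weakest level still flagged well above background lay between -7.24 and -6.52 on Control arrays. On DTG arrays it lay higher, between -5.51 and -5.25. The part of these unequal floors in the counts of large increases and decreases was not tested. Among all 2153 lower calls, 811 (37.7%) had 0 DTG arrays well above background. The 2-fold lower count was 255 with quantile scaling, 233 with no scaling and 50 on the spike-in scale, where 1448 were 2-fold higher. On the spike-in scale 32.2% of all tested probes were called higher and 1.93% lower. The 2-fold shares of all tested probes under these alternatives are not given here. Normexp background correction, which raises dim signals, left 21 probes 2-fold lower and 22 probes 8-fold higher.

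The balance of directions moved with the scaling. Decreases made up 62.2% of the called interval probes on the 75th percentile scale, 56.0% with quantile scaling, 39.2% with no scaling and 5.08% when arrays were scaled on the spike-in control spots. Of all tested probes 7.99% were called lower with no scaling, and on the spike-in scale 32.2% were higher and 1.93% lower. The median change moved to 0.35 on the spike-in scale, with that of all tested probes at 0.36. The spike-in scale takes the same number off every probe of an array, so it moved all changes up by nearly the same amount. That all 1306 higher calls were still called there is therefore no separate support for them. Of the 2153 lower calls, 195 were still called and 1626 still lay below 0. The shift was smaller than 2-fold, so all 415 probes called at least 2-fold lower stayed below 0 by construction. Of these 415, 191 were still called on the spike-in scale. Restricted to probes well above background on all 8 arrays, the same fit gave 1127 higher (13.7%) and 1117 lower (13.6%) calls among 8228 interval probes, against 12.5% and 16.1% of all probes so restricted. The unequal floors of the groups, given above, bear on this restriction too, and their part was not tested.

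Xist level split the arrays within each group and was checked as a batch. With it as a covariate 1411 interval probes were called higher (background 10.9%) and 1970 lower (background 17.8%), and 1239 and 1815 of these were the same probes as before. On the 5 arrays with high Xist alone, 2 Control and 3 DTG, 718 were called higher (background 5.49%) and 554 lower (background 5.25%). All 1306 and 2153 original calls kept their sign there. These arrays were among those that made the calls, so the kept signs are nearly fixed in advance and are no separate support. The 3 arrays with low Xist hold 1 DTG array, whose spread was assumed to equal that of the Control arrays, and gave 0 limma calls in either direction. Of the 3459 original calls, 3453 kept their sign on these 3 arrays, which had also helped to make the calls.

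The shares called in each direction differed with the level of the probe. Tested probes were put in 4 equal classes of mean level over the whole array. In the dimmest class 7.14% of 4440 interval probes were called higher and 25.3% lower, with a median change of -0.35. In the second class the shares of 4104 probes were 13.4% and 14.7%, and in the third, of 2359 probes, 15.1% and 12.3%. In the brightest class, with 1058 interval probes, they were 7.66% and 12.8%. Over all tested probes the shares called higher in the 4 classes were 6.60%, 13.3%, 15.0% and 7.49%, near those of interval probes. The median change of all tested probes in the dimmest class was -0.38. Their shares called lower in the 4 classes were 25.8%, 15.2%, 17.2% and 16.3%. Interval probes stood furthest from these in the third class, at 12.3% against 17.2%, a difference that was not tested. By interval length, 9.58% of probes for intervals under 1 kb were called higher and 21.0% lower, against 9.89% and 17.1% for intervals of 50 kb and over. Forward probes were called higher in 10.3% and lower in 18.4% of cases, reverse probes in 11.5% and 17.5%. By chromosome the share called higher ran from 4.77% on chromosome 15 to 15.6% on chromosome 11, and the share called lower from 12.4% on chromosome 19 to 22.0% on chromosome 7.

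The largest increase among interval probes well above background on all 8 arrays was on the reverse strand of chr17:15100982-15115630. Its probe A_30_P01028116 read -2.93, -2.85, -2.74 and -2.96 in Control and 2.15, 2.31, 2.22 and 2.12 in DTG, a change of 5.07 (SE 0.10), or 33.6-fold (limma adjusted p = 2.06e-07). Every DTG array lay far above every Control array, and the SD within the groups was 0.10 and 0.08 (n = 4 each). This was the probe with the smallest p among interval probes, and all of its readings were well above background. The 2 other probes of the interval and strand, A_30_P01020263 and A_30_P01027464, were higher by 5.05 and 2.97, so all 3 rose.

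The largest fitted change was at chr4:128727331-128735227, on the reverse strand. There A_30_P01033475 was well above background on 0 Control arrays, with readings of -8.11, -7.35, -7.65 and -7.81, and read -1.40, -1.16, -1.42 and -1.72 in DTG. It was at least 45.5-fold higher in DTG, where a bound sets the bright group's mean against the weakest signals that still count as above background on the other group's arrays (fitted change 6.30, SE 0.18, limma adjusted p = 1.02e-06). This probe entered the test only through the DTG arrays, so its p-value is a description and no support for a change. Its neighbours A_30_P01025437, well above background on 2 of 4 Control arrays, and A_30_P01022707 were higher by 5.43 and 3.34. A second reverse set, named with a start 1 base later, did not move with it: of its 5 probes, 2 were not tested and 3, A_30_P01031273, A_30_P01022010 and A_30_P01026667, differed by 0.06, -0.10 and -0.13. On the forward strand of the same stretch, A_30_P01027486 was at least 17.3-fold higher, 3 of 5 other tested probes were called higher (A_30_P01023691 by 4.09), and 4 probes were not tested. Within about 8 kb, then, probes that rose strongly lay beside measured probes that were not called.

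To list the changes, each interval and strand was represented by its called probe with the smallest p among those whose groups do not overlap, and the 10 largest increases and decreases among these were taken. A larger change on another probe of the strand can therefore fall outside the list, as with A_30_P01030008 at 4.57, described further on. Of the 10 increases, 9 were on probes not well above background on any Control array, so bounds are given. These 9 entered the test only through the DTG arrays, so their calls are a description and no support for a change. At chr17:5795893-5835243, A_30_P01028891 (reverse) was at least 25.4-fold higher, with Control readings from -8.54 to -7.63 and DTG readings from -2.97 to -1.79. At chr6:37630192-37682692, A_30_P01031935 (forward) was at least 11.2-fold higher, and A_30_P01026102 on the reverse strand, measured on all 8 arrays, was higher by 4.08, or 16.9-fold. A_30_P01032947 on that reverse strand, not well above background on any Control array, had a larger fitted change, 5.31. At chr6:108556270-108573161, A_30_P01028168 (forward) was at least 11.5-fold higher. These were intervals of 16892 to 52501 bases, and in each of the 3 at least 1 tested probe of the same strand or the other strand was not called.

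The remaining bounds were of similar size. A_30_P01023027 at chr4:63810346-63810958 (forward) was at least 10.6-fold higher and A_30_P01027621 at chr17:24157887-24158104 (reverse) at least 9.98-fold. A_30_P01018947 at chr15:92174226-92201201 (forward) was at least 7.32-fold higher, and A_30_P01025516 at chr4:88604248-88645948 (forward) at least 4.00-fold. In these 4 intervals every other tested probe of the same strand was also called higher. DTG 1 was the lowest DTG array for A_30_P01018947, at -5.23 against -3.95, -3.39 and -3.69, and still lay above the Control readings of -9.37 to -8.01. These 10 increases kept sign and call under every alternative in which they could be fitted as single probes, except the fit on the 3 low-Xist arrays. The averages over an interval and strand were not part of this count.

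The decreases listed by the same rule were smaller, and in each at least 1 DTG array was not well above background. A_30_P01031331 at chr2:168812065-168812873 (forward) read -2.71, -3.39, -3.05 and -2.71 in Control and -5.06, -6.76, -5.04 and -4.76 in DTG, where 3 of 4 arrays measured it. It was at least 4.18-fold lower (fitted change -2.44, SE 0.41, limma adjusted p = 0.00395). A_30_P01032582 at chr17:88890039-88905680 (reverse) had Control readings of -3.32, -3.52, -1.47 and -3.12 and DTG readings of -5.24, -5.69, -5.45 and -4.75, 2 of the latter well above background. It was at least 4.88-fold lower against the same floor (fitted change -2.42). Its Control 3 reading was well above the other Control readings, and the groups did not overlap without it either. The other 8 of the 10 listed decreases were well above background on all 4 Control and 0 DTG arrays. They entered the test only through the Control arrays, so their calls are a description and no support for a change. A_30_P01031915 at chr5:115806200-115834425 was at least 2.03-fold lower, and the bound of 5 more lay between 1.01-fold and 1.37-fold. For A_30_P01022825 and A_30_P01026355 no fold can be given, because their mean Control signal was no higher than the weakest signals counted as above background on DTG arrays.

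**Figure D2:**
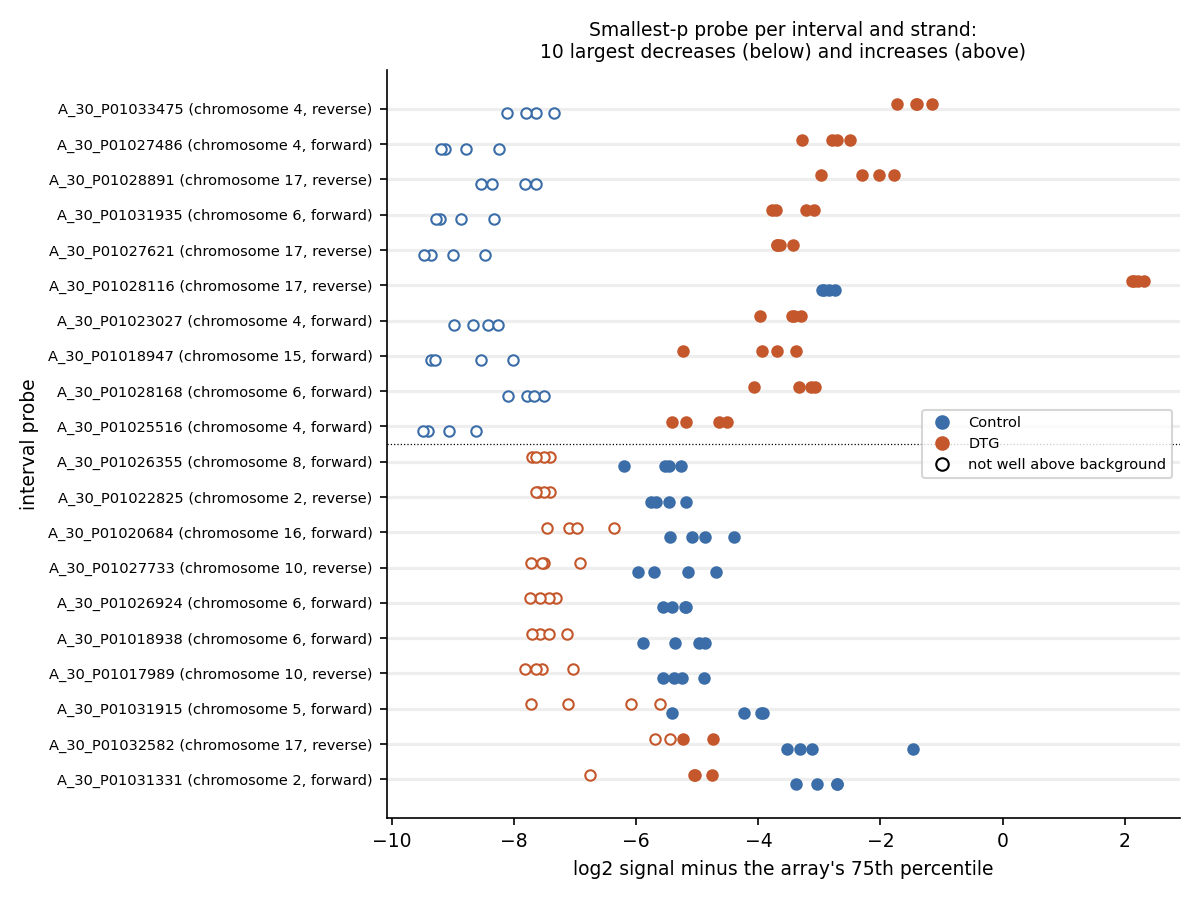
Level on each array (log2 signal minus the array's 75th percentile) of the 10 largest increases, above the dotted line, and the 10 largest decreases, below it, with each interval and strand represented by its called probe of smallest p. Each row is 1 probe with its chromosome and strand, blue points are the 4 Control and orange the 4 DTG arrays, and open points were not well above background. The groups do not overlap in any row, by the rule that chose them, and A_30_P01028116 is the one increase with filled points in both groups.

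Decreases measured on all 8 arrays were therefore looked at separately, and these probes were chosen after their values were seen. The first of them was larger than 8 of the 10 listed decreases, and was outside the list because another probe of its strand had a smaller p. A_30_P01032321 at chr4:101010948-101032148 (forward) read 1.96, -0.05, 1.67 and 0.64 in Control and -1.24, -1.28, -1.14 and -1.39 in DTG, a change of -2.32 (SE 0.40), or 4.99-fold (limma adjusted p = 0.00432). Control 1 and Control 3, the Control arrays with low Xist, were its highest readings, while DTG 2, the DTG array with low Xist, read like the other DTG arrays. Of the 7 other tested probes of its strand 4 were called lower. A_30_P01018998 at chr4:133368314-133380210 (forward) was lower by 1.81 on the log2 scale, and A_30_P01023580 at chr1:95871175-95886625 (reverse) and A_30_P01033549 at chr14:56348028-56348470 (reverse) by 1.78 and 1.77. None of these last 3 had a second probe called lower on its strand; A_30_P01018998 had 1 other tested probe, A_30_P01023580 had 3 and A_30_P01033549 had 0.

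The brightest interval probes changed little. The 6 with the highest mean level, A_30_P01031448, A_30_P01024756, A_30_P01022671, A_30_P01031754, A_30_P01018177 and A_30_P01020015, lie on chromosomes 14, 7, 14, 19, 2 and 17. A_30_P01031448 at chr14:78924115-78938125 read 5.69, 5.93, 6.13 and 5.28 in Control and 5.88, 5.43, 5.15 and 5.24 in DTG, so its groups overlapped. The 6 changes ran from -0.41 to -0.24. A_30_P01024756 at chr7:82902248-82955248 passed the test, at -0.41 (SE 0.12, limma adjusted p = 0.0398), and the other 5 did not; its highest adjusted p with 1 array left out was 0.091. All 6 turned positive on the spike-in scale, where A_30_P01024756 stood at 0.11, so no direction can be given for them.

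Where 2 probes of the same interval and strand were both called, they mostly moved in the same direction. Over the 18509 pairs of tested probes that share an interval and strand, the Pearson correlation of their changes was 0.55. This is a description across pairs that share arrays and may share targets, and sets with more probes gave more pairs. Both probes were called in 2677 pairs, in the same direction in 2503 (93.5%). No such share was computed for pairs from different intervals. Of the 2156 intervals and strands with at least 3 tested probes, 88 (4.08%) had every tested probe called higher, 90 (4.17%) every one lower, 83 (3.85%) calls in both directions, 1024 (47.5%) some calls in 1 direction and 871 (40.4%) none. No background over other sets of probes was computed for these counts. In the 88, the median change was at least 2-fold in 63, and every tested probe was well above background on all 8 arrays in 67. In the 90, these numbers were 23 and 49. The spike-in scale, where 32.2% of all tested probes were called higher and 1.93% lower, turned the 88 and 90 into 259 and 1. Leaving out Control 3 left 40 all lower, Control 2 or DTG 2 left 54, and DTG 4 left 58.

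Some intervals moved on every tested probe, and those that follow were chosen after their values were seen. At chr17:87483814-87493039 all 5 forward and all 5 reverse probes were higher, with median changes of 3.35 and 3.34, and every reading was well above background. The forward probe A_30_P01021926 read -4.46, -4.07, -4.44 and -4.28 in Control and -0.14, -1.02, -1.20 and -1.08 in DTG. DTG 1 was the highest DTG array there, and also for the other 9 probes. On the reverse strand of chr3:65729664-65731697 the 3 probes were higher by 3.03 to 3.89, on that of chr5:91480533-91502237 by 3.46 to 3.70, and all 8 tested forward probes of chr13:34693404-34717987 were higher with a median of 2.03.

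Whole intervals also fell. At chr1:69531191-69570566 the 5 forward probes were lower by 0.72 to 1.48 on the log2 scale and the 5 reverse probes by 0.77 to 1.12, and 9 of the 10 were well above background on all 8 arrays. A_30_P01024555 (forward) read -1.90, -1.81, -1.70 and -1.61 in Control and -3.15, -3.15, -2.81 and -2.88 in DTG, a change of -1.24 (SE 0.12, limma adjusted p = 0.000301). At chr2:77146893-77155643 all 5 forward probes were called lower, with a median of -1.23, and 4 of 5 reverse probes. The lowest medians among the 90 were at chr3:125563727-125564266 (forward, -1.48) and chr1:92177032-92180487 (forward, -1.41), where 2 of 3 and 1 of 3 probes were well above background on 0 DTG arrays.

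Other intervals held probes that changed beside probes that did not. The forward strand of chr6:129151512-129208737 had 10 tested probes. A_30_P01030008, A_30_P01020883 and A_30_P01032545 were higher by 4.57, 4.06 and 3.75, A_30_P01019906 by 1.17, A_30_P01021494 and A_30_P01017796 by 0.55 and 0.39, and the remaining 4 differed by -0.04 to 0.18 and were not called. All 10 were well above background on all 8 arrays. A_30_P01020883 read -4.00, -3.99, -3.89 and -4.22 in Control and -0.08, 0.21, -0.04 and 0.05 in DTG, while A_30_P01020339 read 0.64, 0.92, 0.63 and 0.49 and then 0.73, 0.44, 0.79 and 0.55, with overlapping groups. The reverse strand repeated the split, with 3 probes higher by 2.95 to 4.15, 1 by 0.38 and 4 not called.

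**Figure D3:**
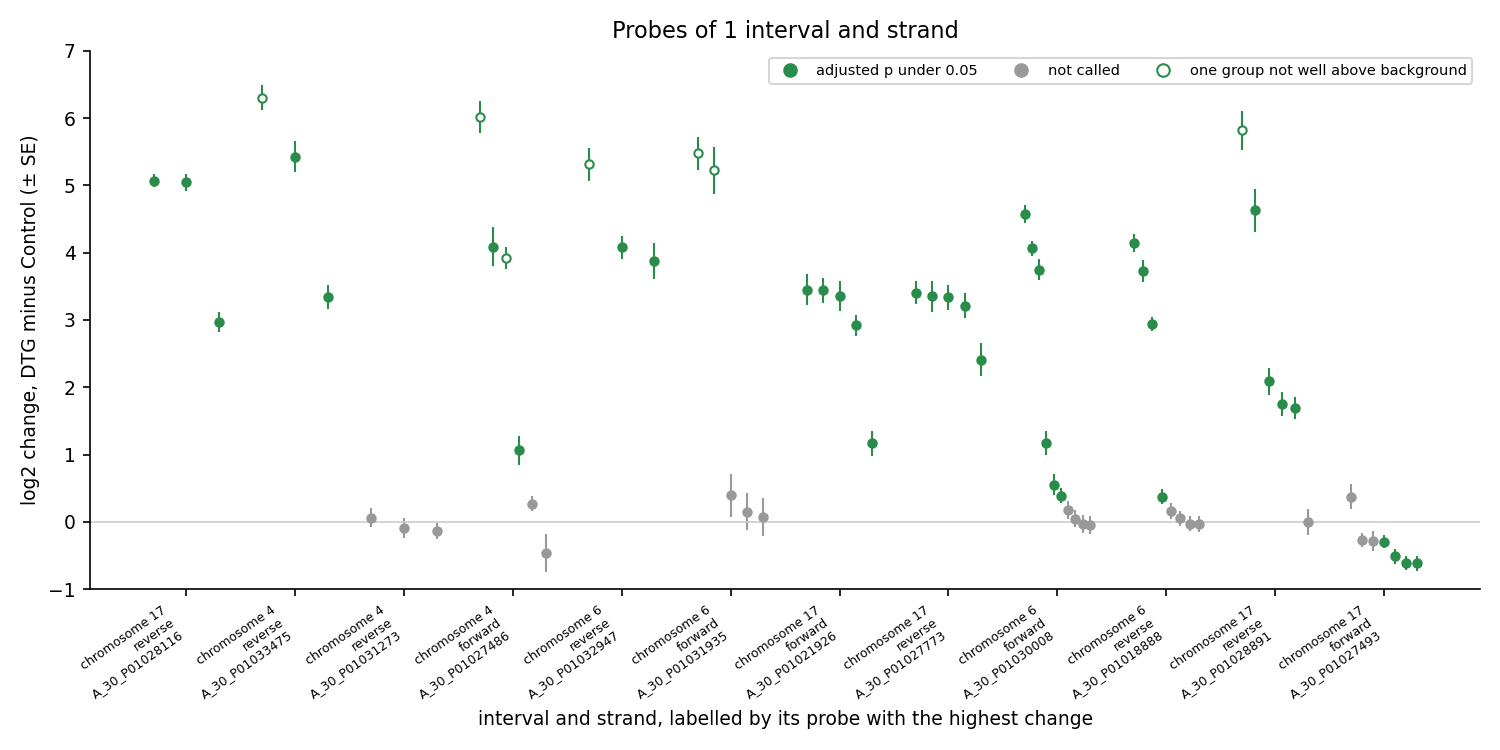
Log2 change (DTG minus Control) with its SE for every tested probe of 12 sets that share an interval name and strand, each labelled by chromosome, strand and the probe with the highest change. Green points passed an adjusted p under 0.05, grey points did not, and open points had 1 group not well above background, so that their height is a fitted value and no measured fold. The first set, on chromosome 17, holds 3 probes at 2.97 to 5.07, whereas the forward set of A_30_P01030008 on chromosome 6 runs from -0.04 to 4.57.

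Strand could be compared at 1040 intervals. In Control skin, 950 of them (91.3%) had a probe well above background on all 4 arrays on both strands, 65 (6.25%) on 1 strand and 25 on neither. The files name no strand control, and whether labelling kept the strands apart was not tested. At the 979 intervals tested on both strands, the median changes of the strands correlated at 0.63 (Pearson, a description across intervals measured on the same arrays) and had the same sign at 769. Both strands held a higher call at 89 intervals, both a lower call at 171, only 1 strand was called at 387, and at 31 the calls went in opposite directions. On the spike-in scale these counts of both higher, both lower and opposite were 367, 7 and 18, and without Control 3 both lower was 105. Of all tested probes 32.2% were called higher and 1.93% lower on the spike-in scale. No background over other probes was computed for the strand counts. The median reached 2-fold on either strand at 88 intervals, with the same sign at 77 of them, and on both strands in the same direction at 22. At 0 intervals did both strands reach 2-fold in opposite directions.

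**Figure D4:**
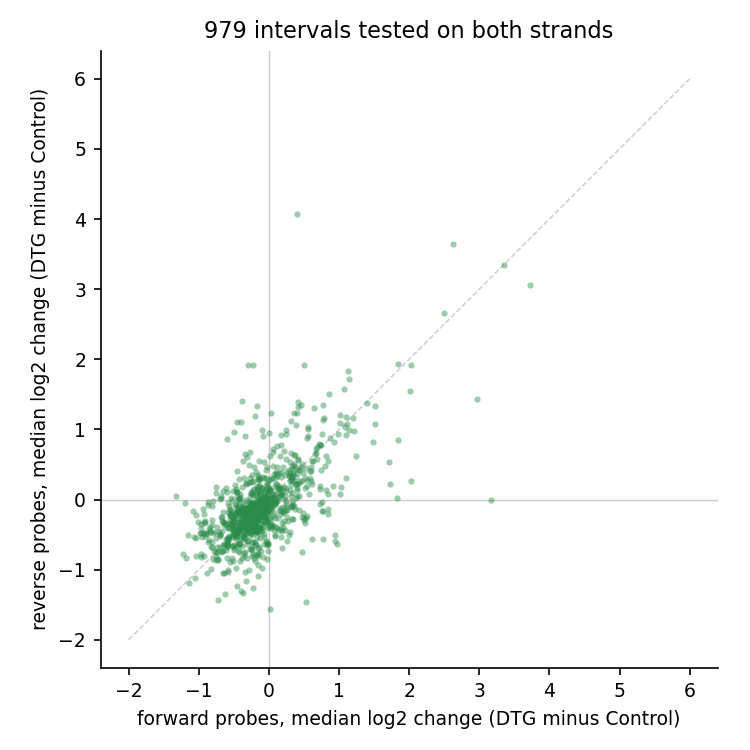
Median log2 change (DTG minus Control) of the forward probes (x axis) and the reverse probes (y axis) of the 979 intervals tested on both strands, 1 point per interval. The dashed line marks equal change, and 769 points have the same sign on both axes.

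The intervals with the largest fitted difference between strands are given as a description, since they were chosen for it. In all 4, at least 1 probe of the pair was not well above background in a group. The differences are therefore fitted values and not measured sizes. Probes with 0 arrays well above background in a group entered the test through the other group alone, so their calls are a description. At chr17:5795893-5835243, A_30_P01029967 on the forward strand read 3.13, 2.96, 3.02 and 2.79 in Control and 2.41, 2.31, 2.39 and 2.35 in DTG, a change of -0.61. On the reverse strand A_30_P01028891, not well above background on any Control array, was at least 25.4-fold higher. Of the 7 tested forward probes 4 were called lower and 0 higher, and of the 6 tested reverse probes 5 were called higher. At chr11:69184157-69201732, A_30_P01022906 (forward) was higher by 2.39, and A_30_P01018171 (reverse), well above background on 4 Control and 0 DTG arrays, was called lower, by at least 1.52-fold. At chr6:30983012-31009987, A_30_P01021276 (reverse) was higher by 2.98, and A_30_P01020077 (forward) was called lower with 0 DTG arrays well above background, so that no fold can be given. At chr9:58301467-58323783, A_30_P01028984 (reverse) was higher by 3.68, and A_30_P01019314 (forward) was not called (limma adjusted p = 0.118) and had 0 DTG arrays well above background. On the spike-in scale A_30_P01029967 stood at -0.10 and A_30_P01019314 at -0.06.

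For the 4 strand pairs chosen by their smallest p, the change on the forward strand was compared with that on the reverse strand. An exact two-sided permutation test over the 8 arrays was used, whose smallest possible p is 0.0286. These same arrays chose the pairs by the smallest p on either strand, which favours a gap between strands. The p-values are therefore given as a description and not as support. At chr6:129151512-129208737 the 2 strands differed by -0.08, with changes of 4.06 and 4.15 (exact p = 0.229; 0.305 adjusted over the 4 pairs). The difference between the strands lay between -0.29 and -0.16 on Control arrays and between -0.42 and -0.23 on DTG arrays, so the groups overlapped. At chr4:21683562-21694350 the forward probe A_30_P01022700 was higher by 2.61 and the reverse probe A_30_P01017916 by 0.51, a difference of 2.10 (exact p = 0.0286; adjusted 0.0571). At chr6:37630192-37682692 the difference was 1.40 (exact p = 0.0286; adjusted 0.0571), and at chr4:128727332-128735227 it was -0.29 (exact p = 0.571). In these last 2 pairs Control readings that were not well above background enter the difference.

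Neighbouring intervals were described by runs. Called intervals of either direction whose starts lie within 200000 bases of each other formed 382 runs of at least 2 intervals. Of these runs 161 held lower calls alone, 48 higher calls alone and 173 both. The run with the most called intervals, chr8:122712014-123008463, held 9, and of its 65 tested probes 25 were called lower, by 0.33 to 1.37 on the log2 scale, and 0 higher. The run at chr8:19678750-20038750 held 8, with 19 of 38 probes lower and 5 higher, the latter by at least 0.79. Another 4 runs tied at 7 called intervals. At chr13:94180737-94203935, 14 of 40 probes were lower and 0 higher, at chr11:69106907-69201732, 12 of 38 lower and 3 higher, and at chr12:110738120-110988678, 10 of 62 lower and 1 higher. The run at chr17:21653676-22099431 went the other way, with 16 of 30 probes higher and 3 lower. Of all tested probes 18.6% were called lower and 10.6% higher. The runs were chosen for their number of called intervals, so these counts are a description. No background was computed for the number of runs or their directions. Of the lower probes in the chromosome 8 and chromosome 13 runs, 9, 2 and 5 were well above background on 0 DTG arrays. Intervals overlap within all 6 runs: in the order given, 7 of 9, 8 of 8, 7 of 7, 6 of 7, 4 of 7 and 5 of 7 called intervals overlapped another of their run. Their probes may therefore share targets, which was not checked.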

How the data were processed

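Each array's table holds the scanner's processed signal, a background-corrected intensity, and flags for spots well above background, written by Agilent Feature Extraction 11.5.1.1 per the file headers; the submitters' processing notes name version 10.7. The authors' deposited intensity values were used as they stand, with the coordinates of build mm9 per the file headers. Outlier-flagged spots (0.339% of interval readings) and control spots were left out, spots of a probe were averaged, and log2 values were scaled to each array's 75th percentile. All non-control probes well above background on at least 3 of 4 arrays of a group were fitted together (limma 3.58.1, R 4.3.3, lmFit and eBayes, 2 groups, no covariate) and called at a Benjamini-Hochberg adjusted p under 0.05. This procedure was tested on simulated data.

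Interval probes named in the text are the 10 largest increases and decreases among calls whose groups do not overlap, with the called probe of smallest p standing for each interval and strand; the 6 brightest; the strand pairs with the largest difference or smallest p, 4 each; the 3 intervals with the smallest p and the 3 whose probes differ most; and the 3 runs with the most called intervals, with 3 more that tie with the last of them. Others are said to be chosen after their values were seen. The members and lists were chosen with earlier results of these data known. Alternatives varied scaling, background, filter, outliers, Xist class, slide column and replicates. The number of arrays limits the precision. Probe sequences and an mm9 genome were not used here.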

Additional observations from a re-analysis of the deposited data

Results flagged for a closer look

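Groups of 4 arrays were examined for most named interval probes, for the Msi1 probes and for the number of interval probes detected. Some probes given one by one above, such as A_30_P01020339, were not among them. Of 115 groups, 3 held an array that stood far from the other 3, and chance alone flags about 1 group in 20. A_30_P01017796, forward on chr6:129151512-129208737, read 1.23 on Control 2 against 0.92 to 0.93 on the other Control arrays. A_30_P01027464, reverse on chr17:15100982-15115630, read 1.23 on DTG 2 against 0.93 to 0.94 on the other DTG arrays, a gap that is small beside its change of 2.97. A_30_P01031331, forward on chr2:168812065-168812873 and the largest decrease, read -6.76 on DTG 2, where it was not well above background, against -5.06 to -4.76 on the other DTG arrays.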

How the results depend on the processing

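The 1306 higher and 2153 lower calls moved past 1.5-fold in these cases. With no scaling 924 were lower and the median change was -0.047. Spike-in scaling gave 3644 higher, 195 lower and a median of 0.35, and normexp background correction 1099 lower and -0.052. With no filter 2959 were higher and the median was -0.077; with probes required above background on all 8 arrays 1263 were lower, with a median of -0.092. The high-Xist arrays gave 718 and 554, the low-Xist arrays 0 and 0, and averaging the probes of an interval and strand 411 and 829 of 4110. Leaving out 1 array in turn gave 1040 to 1275 higher, 1316 to 2058 lower and medians of -0.20 to -0.14, and the lowest count of lower calls came without Control 3. Of all tested probes, 11.7% were higher and 7.99% lower with no scaling, and 32.2% and 1.93% with spike-in scaling. Those shares were 13.5% and 18.1% for probes above background on all 8 arrays, and 5.49% and 5.25% on the high-Xist arrays. For the other alternatives in this paragraph they are not given, so those counts do not set interval probes apart. The mean number of probes detected per array was 12113.5 in Control and 9289.75 in DTG, and became 14011 and 12122 against negative controls and 4130 and 3646 by interval and strand. Of 1239 comparisons of named probes, 1144 kept direction and call, 85 lost the call, 2 gained one and 8 changed sign. Those 8 were A_30_P01018177 (0.23), A_30_P01020015 (0.22), A_30_P01022671 (0.24), A_30_P01024756 (0.11), A_30_P01031448 (0.19) and A_30_P01031754 (0.28) on the spike-in scale, and A_30_P01020015 (0.37) and A_30_P01024756 (0.017) when averaged. The spike-in scale moved all changes up by nearly the same amount, as given above. The averages took A_30_P01020015 with other probes of its strand at 0.25 to 1.16, and A_30_P01024756 with others at -0.59 to 0.86. No paired analysis was possible because the labels give no replicate numbers shared between the groups; with slide column as a block 1077 were higher and 1700 lower.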
